A study of Rattus norvegicus with 4 samples.

Results

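Chemokines and chemokine receptors were examined in 4 mammary cancers of female Sprague-Dawley rats that had been irradiated over the whole body with carbon ions. The rats received a single dose of 0.5 Gy at 7 weeks of age, from a beam of 290 MeV/u with a 6 cm spread-out Bragg peak, the zone of tissue depth in which the beam gives up its energy evenly. They were bought at 5 weeks of age and kept on a standard diet, and from 9 weeks of age they ate an AIN-76A diet with 23.5% corn oil. All 4 cancers form 1 group, with 1 oligonucleotide array for each, and it is not stated whether each came from a separate animal. Since neither unirradiated tumours nor normal gland are analysed here, nothing below measures an effect of radiation or diet. Individual cancers are compared with each other, and they are called tumours 1 to 4 after the replicate numbers of the labels.

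The genes were chosen by their symbols: ligands named Ccl, Cxcl, Xcl or Cx3cl and receptors named Ccr, Cxcr, Xcr, Cx3cr or Ackr, each followed by a number. Of 14217 genes with a probe set that names 1 gene, 45 had such a symbol, read by 58 probe sets. They were 29 ligands and 16 receptors. A further 12 rat genes with such a symbol in RefSeq had no probe set named for them here, among them Ccr7 and Cxcr6, and have no values below. Levels are log2(signal + 16) with all arrays shifted to the same median of 7.83, a signal of about 211. A gene is called expressed where its mean over the 4 tumours reached that median, and the brightest probe set stands for a gene. For bright genes 1 log2 unit is a 2-fold difference, and for dim genes the scale understates the change. Brightness depends on the probe set, so levels of different genes are not ranked against each other. With 1 array a tumour no difference has a replicate check, and no p-value is given.

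Chemokines are small secreted or membrane-bound proteins that guide migrating cells. They fall into CC, CXC, C and CX3C classes by the spacing of conserved cysteines, and they act through G protein-coupled receptors on leukocytes and other cells. Inflammatory chemokines recruit neutrophils, monocytes and effector lymphocytes, and homeostatic chemokines place lymphocytes in lymphoid tissue and at mucosal surfaces. Atypical receptors bind chemokines without G protein signalling and take them up from the tissue. In the mammary gland and its cancers, epithelium, fibroblasts, endothelium and macrophages are all known sources of chemokines.

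Few chemokine genes lay above the array median, although CXC ligands did so about as often as all named genes. Of the 45 genes 13 were expressed (28.9%), against 65.9% of all named genes. They comprised 7 of 11 CXC ligands (63.6%), 3 of 16 CC ligands (18.8%), Cx3cl1, and 2 of 16 receptors (12.5%), Cxcr4 and Cxcr5. In single arrays, 9 genes reached the median in all 4 tumours, 12 in 1 to 3 tumours and 24 in none. Nearest the threshold were Ccl28 and Ccl5 just inside, with means of 7.95 and 8.05, and Cxcl10 and Ccl27 just outside, with 7.80 and 7.77. A value below the median is a dim probe set and not evidence that a transcript was absent.

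**Figure D1:**
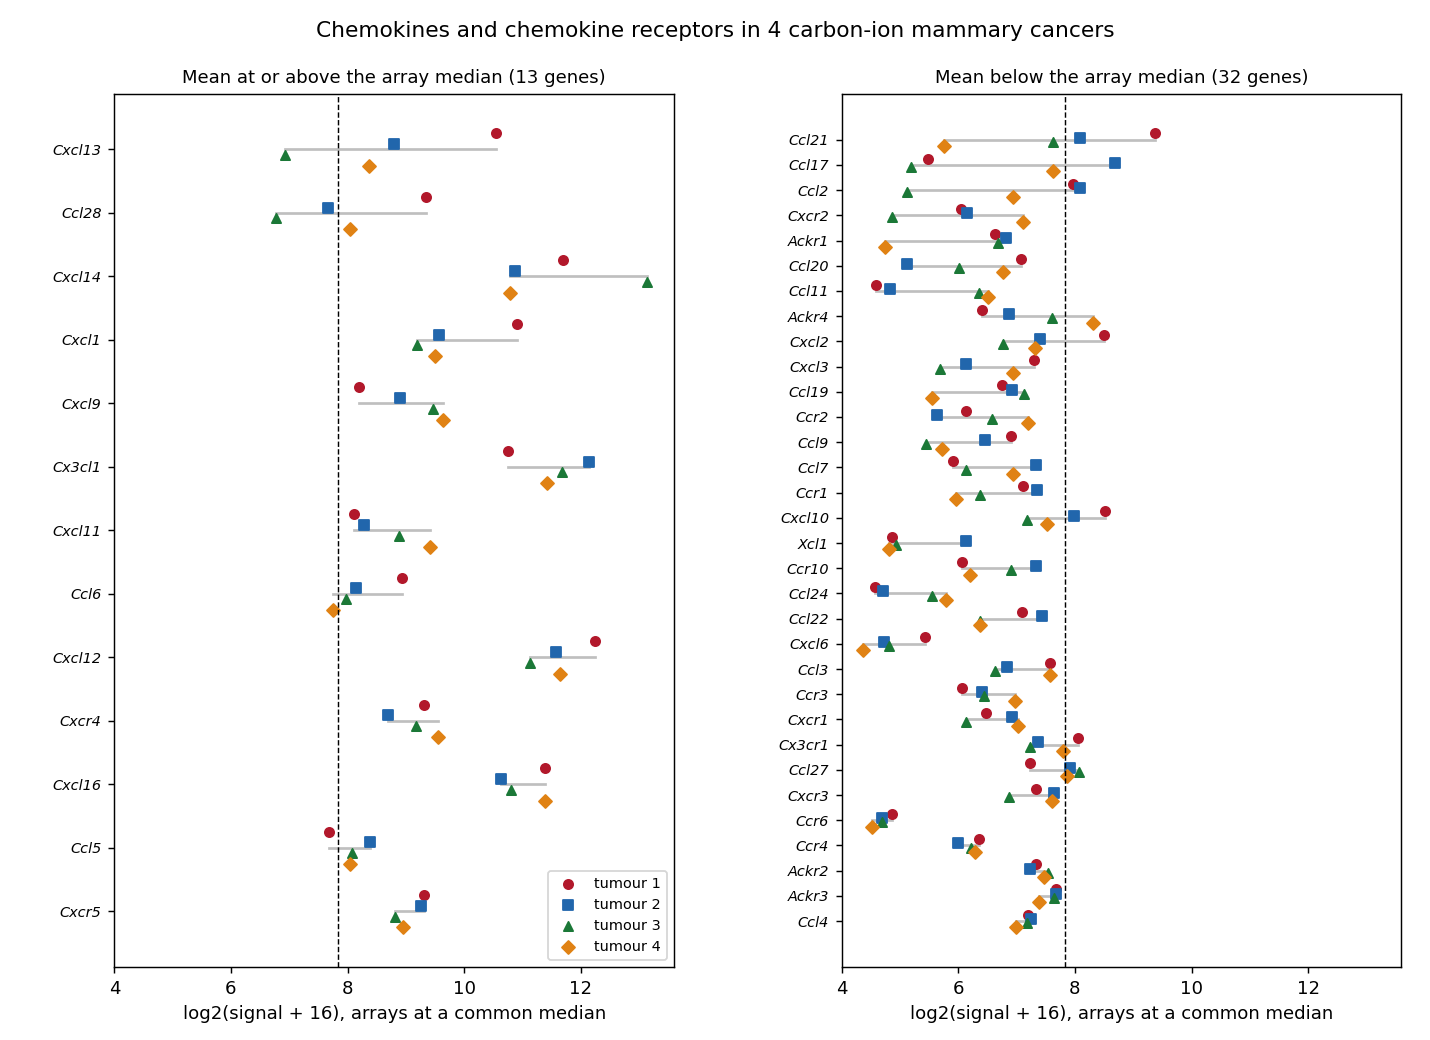
Level of each of the 45 genes in each tumour, as log2(signal + 16), with 1 symbol per tumour and a grey bar from the lowest to the highest. Genes are sorted by that range, the dashed line is the common array median of 7.83, and the 13 expressed genes (left) include 9 whose range reaches 1 log2.

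The expressed chemokine genes differed between tumours by more than most genes did. A range of at least 1 log2 between the highest and lowest tumour was found in 9 of the 13, against 12.9% of all expressed genes, and one of at least 2 log2 in 3, against 2.37%. The SD (standard deviation) over the 4 tumours had a median of 0.58 log2 in these genes, with 0.23 for all expressed genes. All 9 were ligands, and the ranges of Cxcr4 and Cxcr5 were 0.86 and 0.51. A gene can pass the mean filter through 1 high tumour, as Ccl28 did, so these counts are descriptions. Among the 9 genes above the median in all 4 tumours, 6 had a range of at least 1 log2, against 9.87% of all genes so filtered. Without tumour 1, 3 of the 13 genes then expressed reached 1 log2, against 5.93% of all genes then expressed. Without tumour 3, 1 gene reached 2 log2, against 1.80%, and without tumour 1 likewise 1, against 1.05%. Below the median, 21 of 32 chemokine genes had a range of at least 1 log2, against 36.5% of all genes there, and 5 reached 2 log2, against 7.04%. With a pseudocount of 64 in place of 16, 11 of these 21 fell under 1 log2, so their sizes are uncertain.

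**Figure D2:**
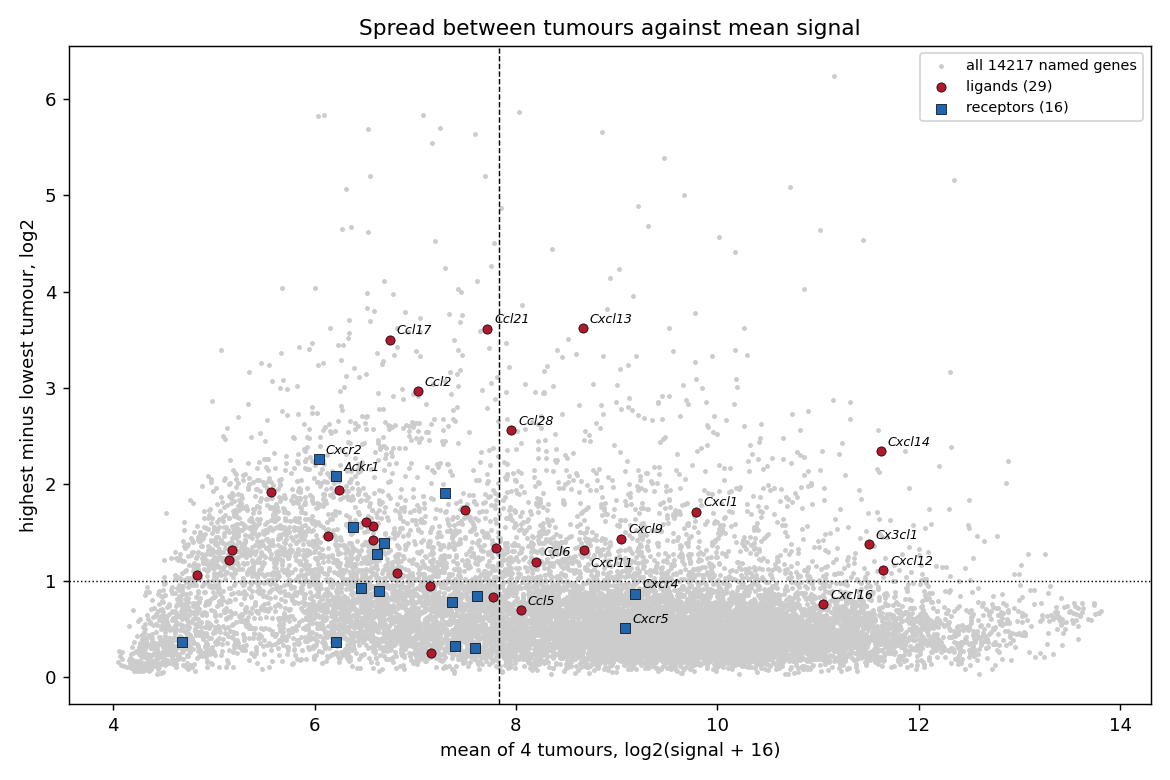
Range between the highest and the lowest tumour (log2, vertical axis) against the mean of the 4 tumours (horizontal axis) for all 14217 named genes (grey), 29 ligands (circles) and 16 receptors (squares). The dashed line is the array median and the dotted line a range of 1 log2; Cxcl13 and Ccl21 range over 3.62 and 3.61.

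Tumour 1 was the most frequent high tumour. Of the 13 expressed genes 7 were highest in tumour 1, against 20.8% of all expressed genes, and 5 were lowest in tumour 3, against 13.9%. The genes highest in tumour 1 and lowest in tumour 3 were Cxcl1, Cxcl12, Cxcl13, Ccl28 and Cxcr5, and these counts were the same with values as deposited and after quantile normalization. Of the 7, Cxcl16 was nearly equal in tumours 1 and 4, at 11.39 and 11.38. The dimmer probe set of Cxcr5 shared neither its highest nor its lowest tumour. Lowest in tumour 1 were 4 of the 13, against 44.1% of all expressed genes. Cxcl1, Cxcl13 and Ccl28 lay at least 1 log2 above each other tumour in tumour 1, where 0.918% of expressed genes did. Cxcl14 was the only expressed chemokine gene that far above the others in tumour 3, where 0.128% did. Cxcl13 was the only one that far below the others in tumour 3, where 0.32% did. Ccl28 passed the mean filter only through its high value in tumour 1. Its place in the counts for that tumour therefore follows in part from the filter. The median difference of the 13 genes from the mean of the other tumours was 0.31, -0.20, -0.30 and -0.01 in tumours 1 to 4, beside -0.13, 0.10, 0.11 and -0.08 for all expressed genes.

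The tumours where expressed chemokine genes were most often highest and most often lowest also differed in cell markers. In bulk tissue, fewer cells of a type and less RNA per cell cannot be told apart. Of 15 macrophage markers 13 were expressed. Of the 13, 11 were highest in tumour 1, against 20.8% of all expressed genes, and 11 were lowest in tumour 3, against 13.9%. The expressed exceptions were Mrc1, highest in tumour 2, and Cd14, highest in tumour 3. The deposited signal summed over the expressed markers of the list, as for each list below, was 29189, 17132, 12849 and 17904 in tumours 1 to 4. Cd163 and Itgam were below the median and no marker was at 0. C1qb, a complement subunit made by macrophages, measured 11.12, 10.19, 8.95 and 10.01, and Aif1, a macrophage actin-bundling protein, 10.14, 9.57, 8.16 and 8.94. Cd68, a lysosomal macrophage protein, measured 10.40, 9.96, 8.81 and 9.62. Ptprc, the pan-leukocyte phosphatase, measured 9.64, 9.19, 7.96 and 8.77. These markers share their highest and lowest tumours with Cxcl1, Cxcl12, Cxcl13 and Ccl28, and their part in those results was not tested.

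Markers of other cell types were read in the same way. Of 7 dendritic cell markers 4 were expressed, with a summed signal of 2851, 1761, 1470 and 1874. Highest in tumour 1 were 3 of the 4, against 20.8% of all expressed genes, and 3 were lowest in tumour 3, against 13.9%. Most macrophage markers had the same extremes. Fscn1 was instead highest in tumour 3. Itgax, an integrin of dendritic cells and macrophages, measured 9.56, 8.11, 7.77 and 8.49, and Irf8, a regulator of both lineages, 9.87, 9.34, 8.41 and 9.30. Of 9 expressed luminal epithelial markers 8 were lowest in tumour 1, against 44.1% of all expressed genes, with a summed signal of 32664, 58109, 68058 and 57890, and Krt8, a luminal keratin, was at 12.36, 13.20, 13.31 and 13.13. Foxa1 was the luminal marker below the median. All 8 expressed fibroblast markers were lowest in tumour 4, against 30.5% of all expressed genes, with a summed signal of 48991, 37944, 46560 and 15113, and Fap was below the median. Of 13 measured T and natural killer cell markers 3 were expressed (Cd3g, Cd4 and Lck), with a summed signal of 1788, 1466, 940 and 1630. All 3 were lowest in tumour 3, against 13.9% of all expressed genes. Over all 13, 10 were lowest in tumour 3, against 18.7% of all named genes, and 7 highest in tumour 4, against 18%. Of 6 neutrophil markers 1, Lcn2, was expressed, at 13.43, 13.55, 13.82 and 13.51, and mammary epithelium is also known to make it. The other 5, all below the median by their means, were highest in tumour 1, against 23% of all named genes. Among them Camp lay near the lowest value the scale allows in all tumours, with a range of 0.40. Of 6 endothelial markers expressed, 5 were highest in tumour 3, against 33.2% of all expressed genes. In the lymphatic, basal and mast cell and eosinophil lists 3, 6 and 2 markers were expressed. None of the markers in these lists was at 0.

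**Figure D3:**
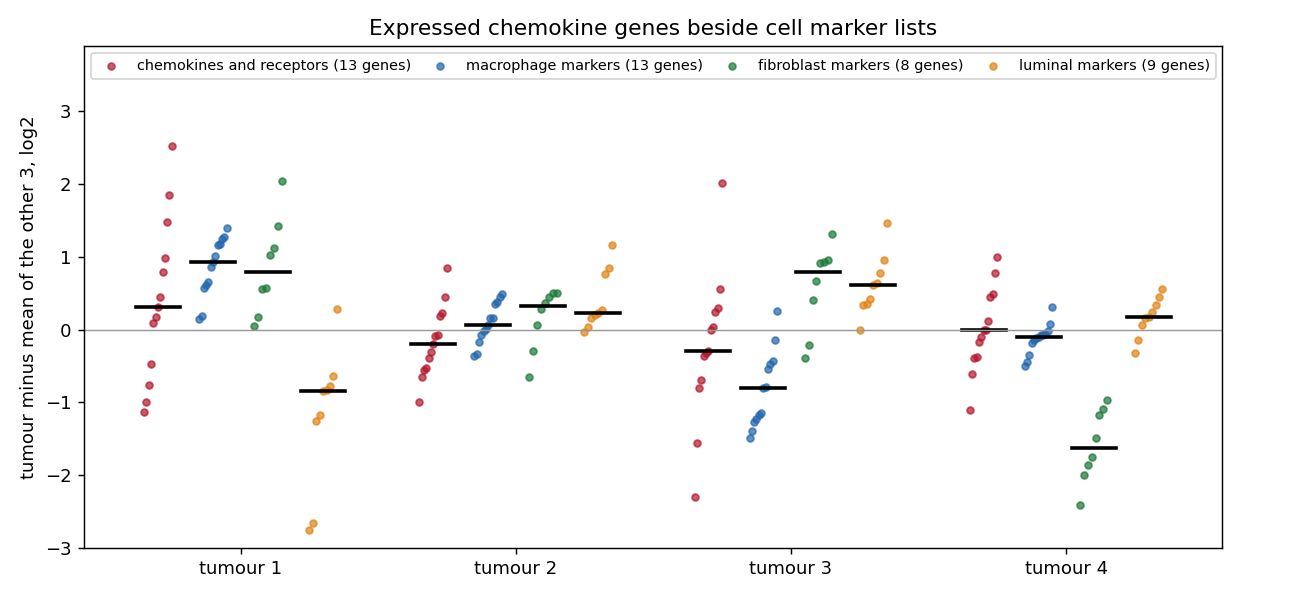
Each tumour minus the mean of the other 3 (log2, vertical axis) for the 13 expressed chemokine genes and for the expressed macrophage, fibroblast and luminal markers, with 1 point per gene and a bar at the median. In tumour 1 the median is 0.31 for chemokine genes, 0.93 for macrophage, 0.80 for fibroblast and -0.85 for luminal markers.

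Cxcl1 and Cxcl2, which attract neutrophils, were highest in tumour 1. Cxcl1, a main attractant of neutrophils in the rat, measured 10.90, 9.56, 9.19 and 9.50 in tumours 1 to 4, a mean of 9.79 ± 0.76 (SD, n = 4). Tumour 1 stood 1.34 above the next tumour, and the other 3 lay within 0.37 of each other. Cxcl2, a close relative that acts on the same receptor, was below the median by its mean but reached 8.50 in tumour 1, against 7.40, 6.77 and 7.32 in tumours 2 to 4. Cxcl3 measured 7.30, 6.14, 5.69 and 6.93 on its brightest probe set. Of its other 4 probe sets 1 shared both the highest and the lowest tumour and 3 shared neither, so the pattern of Cxcl3 is uncertain. Cxcl6, a further attractant of neutrophils, was dim in all tumours, at 5.42, 4.72, 4.81 and 4.37. The dim neutrophil markers had the same highest tumour. S100a8 and S100a9, the subunits of the neutrophil protein calprotectin, measured 8.26, 4.74, 5.49 and 6.83, and 9.21, 6.91, 6.87 and 7.65. Csf3r, the receptor of the growth factor of neutrophils, measured 7.43, 5.09, 4.81 and 6.26. Fcnb and Camp, both neutrophil granule proteins, were also highest in tumour 1, whereas Lcn2 was lowest there. Fcnb was only 0.35 above tumour 2 in tumour 1. Camp lay near the lowest value the scale allows in all tumours, with a range of 0.40, so its order is uncertain. The part of neutrophils in the levels of these ligands was not tested.

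The receptors for these ligands did not share the order. Cxcr2, the main neutrophil chemokine receptor, measured 6.05, 6.14, 4.86 and 7.12 in tumours 1 to 4, and Cxcr1, its neighbour in the genome, 6.47, 6.92, 6.13 and 7.02. Both were under the median in every tumour and highest in tumour 4. The range of Cxcr2 was 2.26, or 1.25 with a pseudocount of 64, and it was 1.07 without tumour 3 and 1.28 without tumour 4.

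The 3 ligands of Cxcr3 split between tumours. These ligands attract activated T cells and natural killer cells, and all are known targets of interferon. Cxcl9 measured 8.20, 8.89, 9.46 and 9.63 in tumours 1 to 4, with a mean of 9.04 ± 0.65 (SD, n = 4). Its other probe set gave 8.09, 8.81, 9.40 and 9.61, the same order of tumours. Cxcl11 measured 8.11, 8.28, 8.89 and 9.42, so both genes were highest in tumour 4 and lowest in tumour 1, with differences of 1.43 and 1.31 between these tumours. Cxcl10 ran the other way between the same tumours, with 8.52, 7.98, 7.17 and 7.52, a difference of 1.00 in favour of tumour 1. The difference of Cxcl9 from Cxcl10 within an array was larger than in tumour 1 by 1.23, 2.60 and 2.43 log2 in tumours 2 to 4. Their receptor Cxcr3 was below the median in all tumours, at 7.33, 7.65, 6.87 and 7.61. A list of cytokines and regulators of chemokine induction held 8 expressed genes. Of these 8, 6 were highest in tumour 4, as Cxcl9 and Cxcl11 were, against 13.9% of all expressed genes. The 6 include the NF-kB inhibitors Tnfaip3 and Nfkbia, so they are not all inducers. Irf1, an interferon regulatory factor, measured 10.60, 10.56, 10.60 and 11.14. Irf7, another factor of that family, was the 1 of the 8 highest in tumour 1, at 11.74, 11.38, 10.66 and 11.15. Tnfaip3, an inhibitor of NF-kB signalling that NF-kB induces, measured 9.33, 9.09, 9.59 and 9.99 and was highest in tumour 4. Over all 19 measured genes of the list, 7 were highest in tumour 4, against 18% of all named genes. Another 7 were highest in tumour 1, against 23%. Among the genes highest in tumour 1 were Ifng, Tnf and Il1b, all below the median by their means and lowest in tumour 3. Gzmb, a granule protease of cytotoxic T and natural killer cells, was below the median and had the same order as Cxcl9, at 6.86, 7.13, 7.40 and 7.85. Other markers of these cells went otherwise: Prf1 and Nkg7 were highest in tumour 3 and Cd8a in tumour 1. Of the 13 measured T and natural killer cell markers 10 were lowest in tumour 3, against 18.7% of all named genes. The part of these genes and cells in the ligand levels was not tested.

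**Figure D4:**
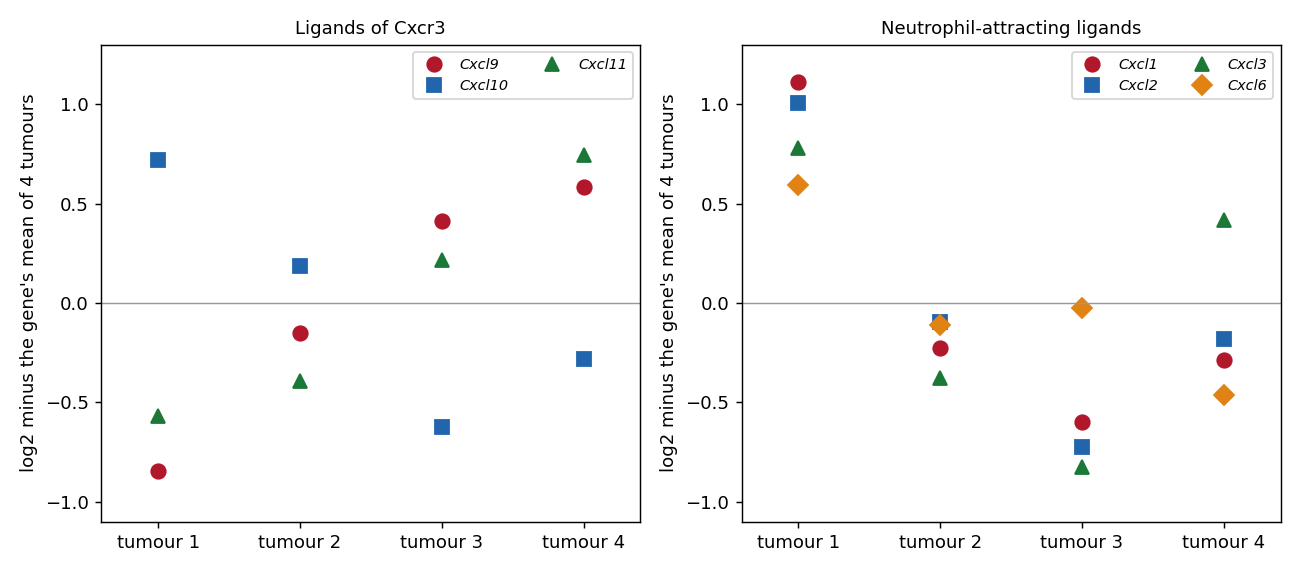
Difference of each tumour from the gene's own mean of 4 tumours (log2, vertical axis) for the ligands of Cxcr3 (left) and the neutrophil-attracting ligands (right), with 1 symbol per gene. Cxcl9 and Cxcl11 are highest in tumour 4, while Cxcl10, Cxcl1, Cxcl2, Cxcl3 and Cxcl6 are highest in tumour 1.

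These ligand genes lie on rat chromosome 14, in separate stretches. In the RefSeq annotation of assembly GRCr8, Cxcl11, Cxcl10 and Cxcl9 follow each other with no protein-coding gene between them, and so do Cxcl2 and Cxcl1. Between Cxcl9 and Cxcl2 lie 17 protein-coding genes. The 250 bases before the annotated start of 5 of the ligand genes are shown from RefSeq (GRCr8, on the strand of the gene). They allow the split of Cxcl10 from its neighbours Cxcl9 and Cxcl11, within 1 gene cluster, to be read beside the regulatory sequence. Capitals mark letters that match an NF-kB-like motif (GGG, 3 free bases, then TTCC), an interferon-response-like motif (GAAA, 2 free bases, then GAAA) or a STAT-like motif (TTC, 3 free bases, then GAA) on either strand.
Cxcl1, chr14:17479322-17479571, minus strand: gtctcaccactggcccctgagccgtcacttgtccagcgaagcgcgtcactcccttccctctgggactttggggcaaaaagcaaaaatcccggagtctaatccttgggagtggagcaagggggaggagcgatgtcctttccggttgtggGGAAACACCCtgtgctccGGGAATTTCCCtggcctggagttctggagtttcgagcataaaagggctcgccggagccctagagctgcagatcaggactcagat
Cxcl2, chr14:17467256-17467505, minus strand: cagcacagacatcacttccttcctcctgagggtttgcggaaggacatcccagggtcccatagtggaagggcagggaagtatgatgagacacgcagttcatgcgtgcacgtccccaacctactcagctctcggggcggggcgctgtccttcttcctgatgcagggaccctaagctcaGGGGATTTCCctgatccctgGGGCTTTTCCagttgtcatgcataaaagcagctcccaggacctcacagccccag
Cxcl10, chr14:15988816-15989065, plus strand: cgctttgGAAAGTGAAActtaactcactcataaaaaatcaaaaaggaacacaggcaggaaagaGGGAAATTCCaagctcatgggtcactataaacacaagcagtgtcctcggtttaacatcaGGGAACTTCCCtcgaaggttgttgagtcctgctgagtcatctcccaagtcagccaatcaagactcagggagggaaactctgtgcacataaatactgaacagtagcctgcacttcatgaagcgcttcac
Cxcl11, chr14:15973478-15973727, plus strand: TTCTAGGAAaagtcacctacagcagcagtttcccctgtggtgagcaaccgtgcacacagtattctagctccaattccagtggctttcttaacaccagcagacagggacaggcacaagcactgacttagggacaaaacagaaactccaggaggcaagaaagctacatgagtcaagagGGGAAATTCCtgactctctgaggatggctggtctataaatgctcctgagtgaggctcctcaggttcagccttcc
Cxcl9, chr14:16006916-16007165, plus strand: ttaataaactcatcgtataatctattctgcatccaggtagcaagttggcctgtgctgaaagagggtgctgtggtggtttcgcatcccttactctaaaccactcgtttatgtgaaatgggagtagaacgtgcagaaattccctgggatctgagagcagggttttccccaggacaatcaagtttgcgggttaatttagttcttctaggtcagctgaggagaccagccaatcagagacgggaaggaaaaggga

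The NF-kB-like motif was found in the Cxcl1, Cxcl2, Cxcl10 and Cxcl11 windows. In Cxcl1 it matched 3 times, and 2 of these matches overlap on opposite strands in 1 stretch (bases 84 to 74 before the start). Cxcl10 likewise held 3 matches with 2 overlapping, and it also held the interferon-response-like motif at bases 243 to 234 before the start. Cxcl11 held 1 NF-kB-like and 1 STAT-like match. The Cxcl9 window held 0 matches to these letters, which says nothing of the factors that bind there. Of 35 chemokine genes with a promoter in the table, 10 held the NF-kB-like motif (28.6%), against 4.53% of 33469 promoter windows of the same length. The interferon-response-like motif was in 2 (5.71%) against 3.41%, and the STAT-like motif in 4 (11.4%) against 7.67%. Several of these genes are related copies in gene clusters, so the counts do not come from independent genes. Cxcl10 and Cxcl11, with NF-kB-like letters in both windows, had different highest tumours.

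Cxcl12, which holds stem cells and leukocytes in stroma, was expressed in all tumours, and its 3 probe sets shared their highest and lowest tumours. The brightest gave 12.24, 11.58, 11.13 and 11.65 in tumours 1 to 4, a mean of 11.65 ± 0.45 (SD, n = 4). The other 2 probe sets differed by 1.61 and 1.90 between tumours 1 and 3, in place of 1.11. Cxcr4, its signalling receptor, measured 9.31, 8.69, 9.17 and 9.55, so it was highest in tumour 4 and lowest in tumour 2. All 3 Cxcr4 probe sets were lowest in tumour 2, and 1 of them put tumour 1 highest. Ackr3, an atypical receptor that takes up Cxcl12 and Cxcl11, stayed between 7.38 and 7.68, just under the median. Without tumour 1 the range of Cxcl12 was 0.51 on the brightest probe set, and without tumour 3 it also fell under 1 log2.

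Cx3cl1, a membrane-anchored chemokine that epithelium and endothelium shed, was lowest in tumour 1. It measured 10.76, 12.14, 11.68 and 11.43 in tumours 1 to 4, a mean of 11.50 ± 0.58 (SD, n = 4), and tumour 2 exceeded tumour 1 by 1.38. Cx3cr1, its receptor on monocytes and macrophages, measured 8.06, 7.37, 7.22 and 7.80 and was highest in tumour 1, the only tumour where it reached the median. The ligand and the receptor therefore had opposite extremes in tumour 1. The low Cx3cl1 signal in tumour 1 coincided with the lowest summed luminal markers and the high Cx3cr1 signal with the highest summed macrophage markers, and the part of either was not tested. Without tumour 1 the range of Cx3cl1 was 0.71, and without tumour 2 it was also under 1 log2.

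Cxcl13, the B-cell attractant of lymphoid follicles, differed widely between tumours. It measured 10.55, 8.80, 6.93 and 8.37 in tumours 1 to 4, with a mean of 8.66 ± 1.49 (SD, n = 4) and a range of 3.62. Of all expressed genes, 99.7% had a smaller range. Tumour 3 was under the median, and without tumour 1 the range was 1.87. Cxcr5, its receptor on B cells and follicular helper T cells, measured 9.32, 9.26, 8.81 and 8.96 in the same order of tumours but over 0.51 log2, and its dimmer probe set did not share that order. Of 6 measured B-cell and plasma-cell markers 2 were expressed. Jchain, the joining chain of secreted immunoglobulins, was at 10.88, 7.44, 6.74 and 10.70, and Blnk, a B-cell adaptor, at 8.94, 8.40, 7.95 and 9.03. Cd79b, Cr2, Ms4a1 and Mzb1 were below the median, and none was at 0. Both expressed markers were, like Cxcl13, lowest in tumour 3, against 13.9% of all expressed genes. Tumour 4 was high in both markers and not in Cxcl13. Of the dim markers Ms4a1 was also lowest in tumour 3, whereas Cr2 was lowest in tumour 1, Mzb1 in tumour 2 and Cd79b in tumour 4. Their part in the Cxcl13 result was not tested.

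**Figure D5:**
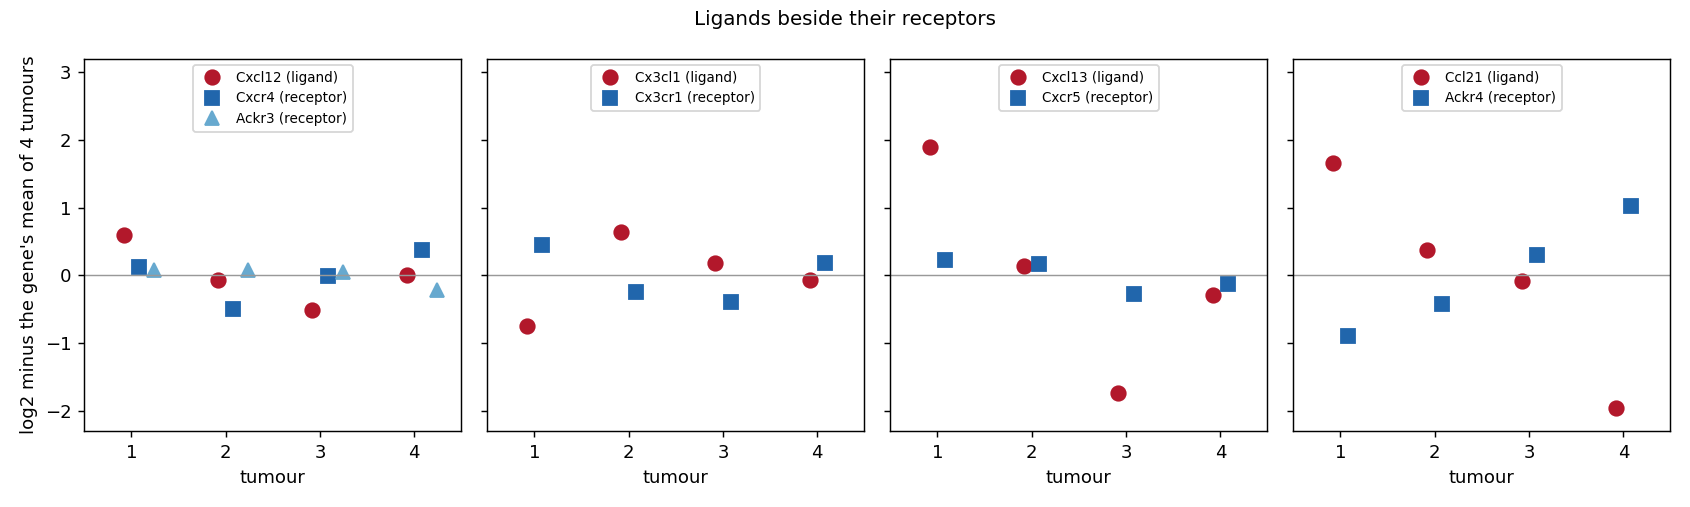
Difference of each tumour from the gene's own mean of 4 tumours (log2, vertical axis) for ligands (circles) and their receptors (squares and triangles). Cxcl13 ranges over 3.62 and its receptor Cxcr5 over 0.51, and Ccl21 and Ackr4 have opposite orders of tumours.

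Cxcl14 and Cxcl16, both ligands that epithelium makes, had other patterns. Cxcl14 measured 11.69, 10.87, 13.13 and 10.79 in tumours 1 to 4, and tumour 3 stood 1.44 above the next tumour. Its other probe set, mostly dimmer than the median, was also highest in tumour 3, at 7.99 against 6.94, 6.37 and 7.09. Without tumour 3 the range of Cxcl14 was 0.90. With values as deposited or after quantile normalization its lowest tumour was tumour 2 in place of tumour 4, and tumour 3 stayed highest. Cxcl16, a membrane-bound ligand that also binds oxidised lipids, measured 11.39, 10.63, 10.81 and 11.38, so tumours 1 and 4 lay together above tumours 2 and 3.

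Among CC ligands that serve mucosa and skin, Ccl28, a mucosal ligand that draws immunoglobulin A-secreting cells into the lactating gland in mice, was highest in tumour 1. It measured 9.34, 7.66, 6.78 and 8.04, a range of 2.56, with tumours 2 and 3 under the median. Without tumour 1 its range was 1.26. Ccl27, the skin-homing ligand, lay between 7.23 in tumour 1 and 8.06 in tumour 3. Ccr10, the receptor of both, was under the median at 6.06, 7.33, 6.90 and 6.19. It was lowest in tumour 1, where Ccl28 was highest.

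The lymphoid-homing ligands Ccl21 and Ccl19, which draw dendritic and naive T cells through Ccr7, were below the median by their means. Ccl21, which lymphatic endothelium is known to make, measured 9.37, 8.09, 7.63 and 5.76 in tumours 1 to 4, so the difference between tumours 1 and 4 was 3.61. Without tumour 4 its range was 1.75. The 4 lymphatic markers had no common order. Flt4, the lymphatic growth factor receptor, was below the median and had the order of Ccl21, at 7.29, 6.73, 6.28 and 6.17. Lyve1, a hyaluronan receptor, was lowest in tumour 4 at 7.94, against 8.64, 8.92 and 8.82 in tumours 1 to 3. Prox1 was lowest in tumour 1 and Pdpn in tumour 3, and the summed signal of the 3 expressed markers was 1841, 1748, 1171 and 1649. The part of lymphatic cells in the Ccl21 values was not tested. Ccl19 measured 6.75, 6.91, 7.12 and 5.55, and it too was lowest in tumour 4. Ackr4, the atypical receptor that removes both ligands, ran in the opposite order to Ccl21, with 6.41, 6.87, 7.60 and 8.32, a difference of 1.91 between tumours 4 and 1. Each of these genes had 1 probe set.

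Monocyte-attracting CC ligands were mostly dim and disagreed in order. Ccl2, the main monocyte attractant, measured 7.97, 8.08, 5.11 and 6.94, with tumour 3 lowest by 1.82. Its highest tumour was tumour 1 with values as deposited. Ccl7, its neighbour in the genome, measured 5.91, 7.33, 6.13 and 6.93. Their receptor Ccr2 measured 6.13, 5.63, 6.57 and 7.19 and was highest in tumour 4. Ccl5, which attracts T cells and monocytes and is made by T and natural killer cells, was expressed at 7.69, 8.38, 8.07 and 8.04. Ccl3 and Ccl4, macrophage inflammatory proteins, were under the median in all tumours, with ranges of 0.95 and 0.25. Ccr1, a receptor of Ccl3 and Ccl5, measured 7.11, 7.34, 6.37 and 5.95.

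The rodent ligands Ccl6 and Ccl9, which myeloid cells make, were both highest in tumour 1. Ccl6 was expressed, at 8.94, 8.14, 7.98 and 7.75 in tumours 1 to 4. Without tumour 1 its range was 0.40, and without tumour 4 it was also under 1 log2. Ccl9 was dim, at 6.90, 6.46, 5.45 and 5.72. Both followed the macrophage markers in their highest tumour, and Ccl9 in its lowest as well; the part of those cells was not tested.

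Ligands of other leukocyte classes varied at low signal. Ccl17, a ligand of Ccr4 that draws type 2 helper and regulatory T cells, measured 5.49, 8.69, 5.19 and 7.63, so it was above the median in tumour 2 only and its range was 3.50. Ccl22, the other ligand of Ccr4, measured 7.08, 7.44, 6.37 and 6.37, and its dimmer probe set was highest in another tumour. Ccr4 itself stayed between 6.00 and 6.35. The eosinophil attractant Ccl11 measured 4.59, 4.82, 6.35 and 6.51, and Ccl24, which shares its receptor, 4.56, 4.70, 5.54 and 5.78. Both were higher in tumours 3 and 4 than in tumours 1 and 2, and their receptor Ccr3 was lowest in tumour 1 and highest in tumour 4 over 0.92 log2. Ccl20, the ligand of Ccr6 on dendritic and T helper 17 cells, measured 7.07, 5.12, 6.00 and 6.77, and Ccr6 stayed between 4.51 and 4.87. Xcl1, a ligand made by T and natural killer cells for cross-presenting dendritic cells, was dim in all tumours, at 4.86, 6.13, 4.93 and 4.81. With a pseudocount of 64 the ranges of Ccl11, Ccl22, Ccl24 and Xcl1 were under 1 log2, as were those of Ccl7, Ccl9, Ccl19, Ccr1, Ccr2, Ccr10 and Cxcl6.

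Of the remaining atypical receptors, Ackr1, which venular endothelium and red blood cells carry and which binds many inflammatory chemokines, measured 6.63, 6.82, 6.68 and 4.73. Tumour 4 was low, and without it the range was 0.19. Of 6 expressed endothelial markers 4 were lowest in tumour 4, against 30.5% of all expressed genes. The others, Vwf and Esam, were lowest in tumour 2, and Vwf was highest in tumour 4. Hbb, the 1 expressed red blood cell marker, was also highest in tumour 4, at 12.94 against 10.68, 10.27 and 11.38. Their part in the Ackr1 value was not tested. Ackr2, the scavenger of inflammatory CC chemokines, stayed between 7.22 and 7.54.

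Of 34 ligand and receptor pairs listed from general knowledge, 27 had both genes measured and 2 had both expressed, Cxcl12 with Cxcr4 and Cxcl13 with Cxcr5. Genes that act downstream of the receptors or beside the ligands were taken from lists, to be read against 65.9% of all named genes expressed and 12.9% of expressed genes with a range of at least 1 log2. Of 22 measured signalling genes 16 were expressed and 3 had a range of at least 1 log2. The widest were Tiam1, an activator of the GTPase Rac, at 9.60, 9.23, 8.47 and 9.26, and Gng2, a G protein gamma subunit, at 8.45, 9.21, 8.98 and 8.10. Of 13 measured genes that process or hold chemokines 10 were expressed and 3 reached that range, among them Mmp2, a matrix metalloproteinase that cleaves chemokines, at 11.87, 11.69, 12.00 and 10.06, and Plau, the urokinase protease, at 10.55, 9.18, 8.95 and 9.35. Of 19 measured cytokines and regulators of chemokine induction 8 were expressed and 1, Irf7, reached it. Of 14 measured chemokine-like genes outside the symbol pattern 9 were expressed and 2 reached it. They were Cmtm8, at 9.15, 10.70, 10.95 and 10.40, and Rarres2, which encodes the attractant chemerin, at 10.12, 9.33, 8.91 and 8.38.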

How the data were processed

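Total RNA of 4 tumours was labelled with biotin after priming at the poly(A) tail and hybridised to 1 array each, per the labels' protocols. The authors deposited linear intensity values for 31099 probe sets; how they were computed from the scans is not given in the sources used here. With 2% trimmed from each end, every array had a mean of 500.1, so a common scaling had been applied before deposit. Median signals lay between 201.8 and 221.9, no array pair was identical, and no detection call was used here. The number of arrays limits the precision.

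Values were taken as log2(value + 16), and a constant was added to each array to bring its median to the mean of the array medians (-0.07 to 0.06). Probe sets were named from the platform annotation. Of these, 9831 had no entry and 436 named several genes, and they were left out of the gene values. The array medians, and so the threshold of 7.83, were taken over all 31099 probe sets. All 45 gene symbols were found by gene identifier in the RefSeq table of GRCr8. Genome coordinates are given for the printed RefSeq windows only. The 16 gene lists hold 185 genes. The genes, lists, ligand pairs and motifs were chosen with earlier results of these data known. The naming rule gives values for every expressed chemokine gene and for every other one with a range of at least 1 log2. It also gives them for the 2 expressed genes of largest range in a list, and for Cd68, Ptprc and Krt8. Cd3g, Cd4, Lck, Lcn2 and Hbb fall outside it or are named as the few expressed markers. The values of S100a8, S100a9, Csf3r, Fcnb, Camp, Irf1, Gzmb, Flt4 and Lyve1 fall outside it as well. So do the tumour values of Cx3cr1, Cxcr1 and Cxcr3. All of these were added after their values were seen. A selection of the genes so named in the cell marker lists is given. The 1 group allowed no test. The scripts were tested on simulated data. Python 3.11.15, numpy 2.4.6 and pandas 2.3.3 were used. Alternatives covered the centring, the pseudocount, the probe set rule, the filter and leaving out each tumour.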

Additional observations from a re-analysis of the deposited data

Results flagged for a closer look

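In 3 of the 45 chemokine genes, none of them among the 13 expressed, 1 tumour stood apart from the other 3 by a larger part of the gene's whole range than Dixon's limit for 4 samples allows. For Ackr1 the gap took up 0.911 of the range, with tumour 4 low. For Ackr3 it took up 0.880, with tumour 4 low, over a range of only 0.30 log2. For Xcl1 it took up 0.911, with tumour 2 high. Chance flags about 1 in 20 groups.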

How the results depend on the processing

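No paired analysis was possible because all samples form 1 group. Of 13 expressed chemokine genes, 9 had a range of at least 1 log2 and 3 of at least 2 log2, against 12.9% and 2.37% of all expressed genes. Without a filter on low values the counts were 30 and 8 of 45, against 21.0% and 3.96% of all named genes. Requiring the median in all 4 tumours left 1 gene at 2 log2, against 1.31% of all genes so filtered. The median shift in tumour 3 was then -0.011. The brighter 25% of probe sets held 5 chemokine genes, with 4 at 1 log2 and 1 at 2 log2. Among all genes of that brightness the shares were 9.88% and 1.75%. The median shift in tumour 4 turned positive with values as deposited (0.059), after quantile normalization (0.018) and with probe sets averaged (0.037). Averaging probe sets also moved the median shift in tumour 3 to -0.064, against -0.300. It left 2 genes at 2 log2, against 2.23% of all expressed genes. Without a filter the shift in tumour 2 was -0.0054, against -0.204. Leaving out each tumour in turn gave 13 to 15 expressed genes, 3 to 9 at 1 log2 and 1 to 3 at 2 log2. Of all genes then expressed, 5.93% to 10.6% reached 1 log2 and 1.05% to 2.04% reached 2 log2. The median SD of the chemokine genes was 0.36 to 0.63. The median shifts then ran from 0.29 to 0.66 in tumour 1, -0.37 to 0.19 in tumour 2, -0.48 to -0.10 in tumour 3 and -0.30 to 0.13 in tumour 4; the positive values in tumours 2 and 4 came without tumour 1. Apart from the filters, which change how many genes are counted, the cause was not tested. With probe sets averaged the range of Cxcl3 fell to 0.44, that of Cxcr5 to 0.11 and that of Ccl22 to 0.97. The 9 genes at 1 log2 were the same 9 with values as deposited, after quantile normalization, with pseudocounts of 1 and 64 and with probe sets averaged. Dim probe sets and 1 array per tumour limit every value.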
